A study of Mus musculus with 21 samples.

Results

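Chemokines and their receptors were examined in the livers of mice that had received titanium dioxide nanoparticles into the airways. Genes were taken by symbol: the CC and CXC chemokine ligands (Ccl and Cxcl with a number), their receptors (Ccr and Cxcr with a number), the CX3C ligand Cx3cl1 and its receptor Cx3cr1. Of 60 symbols of this form in the RefSeq gene table, 50 had a probe on the array, among 16535 named genes in all, and each was represented by its probe with the brightest liver signal. These 50 genes comprised 33 ligands and 17 receptors. The remaining 10, among them Cxcl11, Ccl26 and the copies Ccl21b, Ccl21c, Ccl21d and Ccl27b, were not analysed here. Per the labels, female C57BL/6 mice received nano-TiO2 once, at 162 µg per mouse by intratracheal instillation, or the vehicle alone, which was saline with a share of cell-free lung lavage fluid from untreated mice. The mice were 5 to 7 weeks old when bought, with 1 to 3 weeks of acclimatisation before use. Livers were taken at day 1 or day 28. There were 6 TiO2 mice and 5 control mice at day 1, and 6 TiO2 mice and 4 control mice at day 28, each on its own array. Each of the 21 arrays set the Cy5-labelled liver RNA of 1 mouse against the same Cy3-labelled universal mouse reference RNA, and no dyes were swapped. Everything below is relative to that reference: a level is the log2 ratio of liver over reference for a gene's own probe, and a difference is a difference of such levels. Ratios of different probes were not compared as amounts of RNA.

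Chemokines are small secreted proteins that guide leukocytes along gradients and into tissue by way of receptors coupled to G proteins. In the liver they come from hepatocytes, Kupffer cells (the resident macrophages), sinusoidal endothelium, stellate cells and bile duct cells, and they set which monocytes, neutrophils, lymphocytes and natural killer T cells enter. Some ligands, such as Cxcl12, are made at rest, whereas others, such as Cxcl1, Ccl2, Cxcl9 and Cxcl10, are known for their induction by inflammatory signals.

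The arrays carried hepatocyte and Kupffer cell transcripts throughout, although the extraction protocol in the labels names lungs. The 6 hepatocyte markers on the array and 7 Kupffer cell markers were well above background on every array. Of the 6 lung markers on the array 0 were so on every array: the club cell gene Scgb1a1 was detected on 17 arrays, Aqp5 on 9, the surfactant genes Sftpa1, Sftpb and Sftpc on 4, 2 and 2, and Ager, of alveolar type 1 cells, on 0. The source of the Scgb1a1 signal was not tested. Arrays were scanned on 3 days, each with mice of all 4 groups, and scan day accounted for 91.7% of principal component 1, which held 40.2% of the variance. Arrays of scan day 2 had the most probes detected in liver, 20879 to 26616, whereas scan day 1 gave 15216 to 16903 and scan day 3 gave 12985 to 16755. Effects are therefore also given with scan day as a block in the model and within scan days. Each scan day held 2 TiO2 mice of day 1 and 2 of day 28. Control mice of day 1 numbered 1, 2 and 2 on scan days 1, 2 and 3, and those of day 28 numbered 1, 2 and 1. A difference within a scan day thus compares 2 TiO2 mice with 1 or 2 control mice.

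Ligands were detected more often than receptors. By the scanner software's own test, 13 of the 50 genes were well above background in liver on every array, 10 on none and 27 on some. Among all named genes 43.6% were above background on every array and 17.1% on none. Of the 33 ligands 12 were detected on every array, against 1 of the 17 receptors. The number of these genes detected per array was 17 to 31 in TiO2 mice and 18 to 37 in control mice at day 1, and 18 to 29 in TiO2 mice and 17 to 28 in control mice at day 28.

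The CC ligands detected on all 21 arrays were Ccl2, the main attractant of monocytes, Ccl6 and Ccl9, which myeloid cells of mice express and which bind Ccr1, Ccl19, a ligand of Ccr7 in lymphoid tissue, Ccl24, an eosinophil attractant that binds Ccr3, Ccl25, a ligand of Ccr9 known from thymus and small intestine, and Ccl27a, a ligand of Ccr10. The CXC ligands were Cxcl9 and Cxcl10, the interferon-induced ligands of Cxcr3, Cxcl12, the stromal ligand of Cxcr4, and Cxcl14. Cx3cl1, the membrane-anchored ligand fractalkine, was detected throughout as well. Ccl5, an attractant of T cells and monocytes, was detected on 20 arrays, Ccl21a, a ligand of Ccr7, on 17, and Cxcl16, a ligand of Cxcr6 on sinusoidal endothelium and macrophages, on 16.

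Receptors of leukocytes that enter an inflamed liver differed in detection. Cxcr3 was above background on 16 arrays and Cxcr6 and Ccr6 on 13 each, whereas those of monocytes and neutrophils were mostly below detection. Ccr2, the receptor by which monocytes follow Ccl2, and Cxcr2, the neutrophil receptor of Cxcl1 and Cxcl2, were each above background on 1 of 21 arrays, which was the same array, control day 1 replicate 2. In the reference RNA the Ccr2 probe was above background on 0 arrays and that of Cxcr2 on 8. Cx3cr1 was detected in liver on 5 arrays and Cxcr4 on 6. The 10 genes detected on no array were the ligands Ccl1, Ccl11, Ccl22, Cxcl3, Cxcl5 and Cxcl17 and the receptors Ccr1, Ccr4, Ccr8 and Cxcr1. Cxcl5, a neutrophil attractant, was above background in the reference RNA on all 21 arrays. In a bulk sample, few cells of a type and little RNA per cell cannot be told apart.

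Detection moved with scan day. Between 25 and 37 of the 50 genes were above background on arrays of scan day 2, but 17 to 21 on those of scan day 1, and 17 to 23 on those of scan day 3. For 11 genes every array with a signal above background belonged to scan day 2, among them Ccl3, Ccl17, Ccr2, Ccr7 and Cx3cr1. Ccl20, a ligand of Ccr6, went the other way, with detection on 1 of 8 arrays of scan day 2, 4 of 6 of scan day 1 and 6 of 7 of scan day 3.

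**Figure D1:**
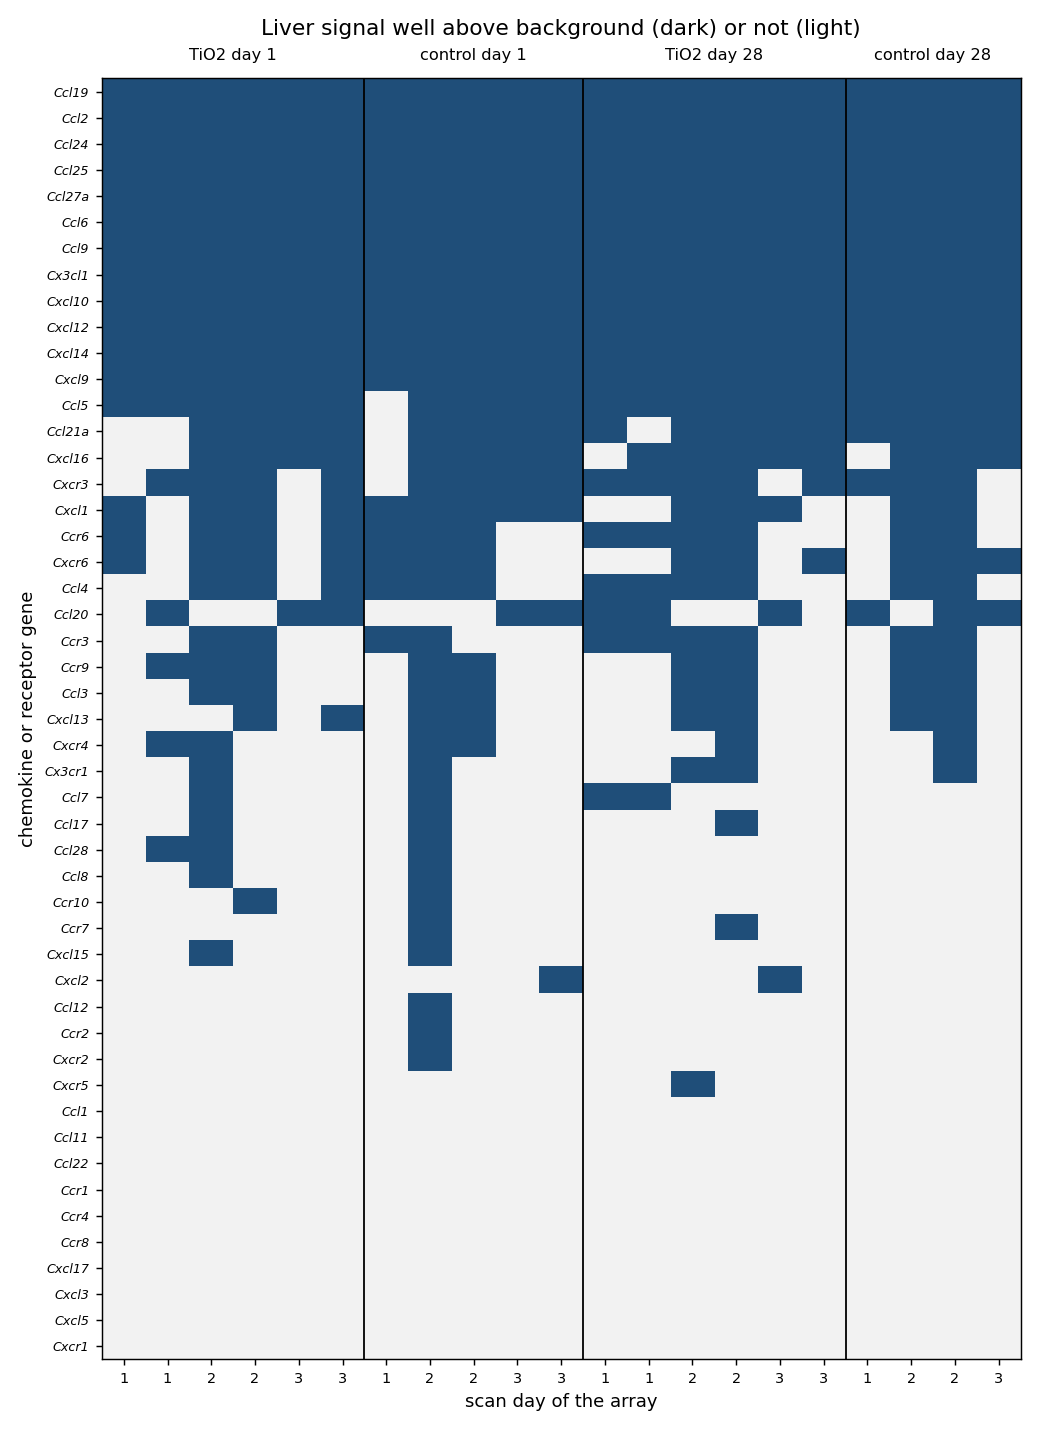
Detection of 49 chemokine and receptor genes (rows) on each of the 21 arrays (columns, grouped by treatment and day and labelled with the scan day); dark cells mark a liver signal well above background. The 12 genes at the top were detected on every array and the 10 at the bottom on none, and the columns of scan day 2 hold the most dark cells within each group.

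A gene was tested where its probe was above background on 50% or more of the arrays in 1 or more groups. By this criterion 26 of the 50 genes could be tested, 20 ligands and 6 receptors, among them Ccr3, Ccr6, Cxcr3 and Cxcr6. Of all named genes 68% could be tested. The other 24 have no level here. Of the 26 genes, 11 lay above the reference on every array, among them Ccl6, Ccl9, Ccl19, Ccl27a, Cxcl9, Cxcl12, Cxcl13, Cxcr3 and Cxcr6. Another 8 lay below it on every array: Ccl2, Ccl3, Ccl4, Ccl5, Ccl24, Cx3cl1, Cxcl1 and Ccr9. The remaining 7 lay on both sides. The reference channel itself was above background on 0 arrays for Cxcl13, on 1 for Cxcl9, on 4 for Ccl21a and on 7 for Ccl19, so the size of these ratios rests on the background correction. In liver the Cxcl13 probe was above background on 8 arrays. On the others neither channel was, and its place above the reference there is uncertain. Among genes below the reference, Ccl3, Ccr9 and Ccl4 were above background in liver on 8, 9 and 12 arrays.

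**Figure D2:**
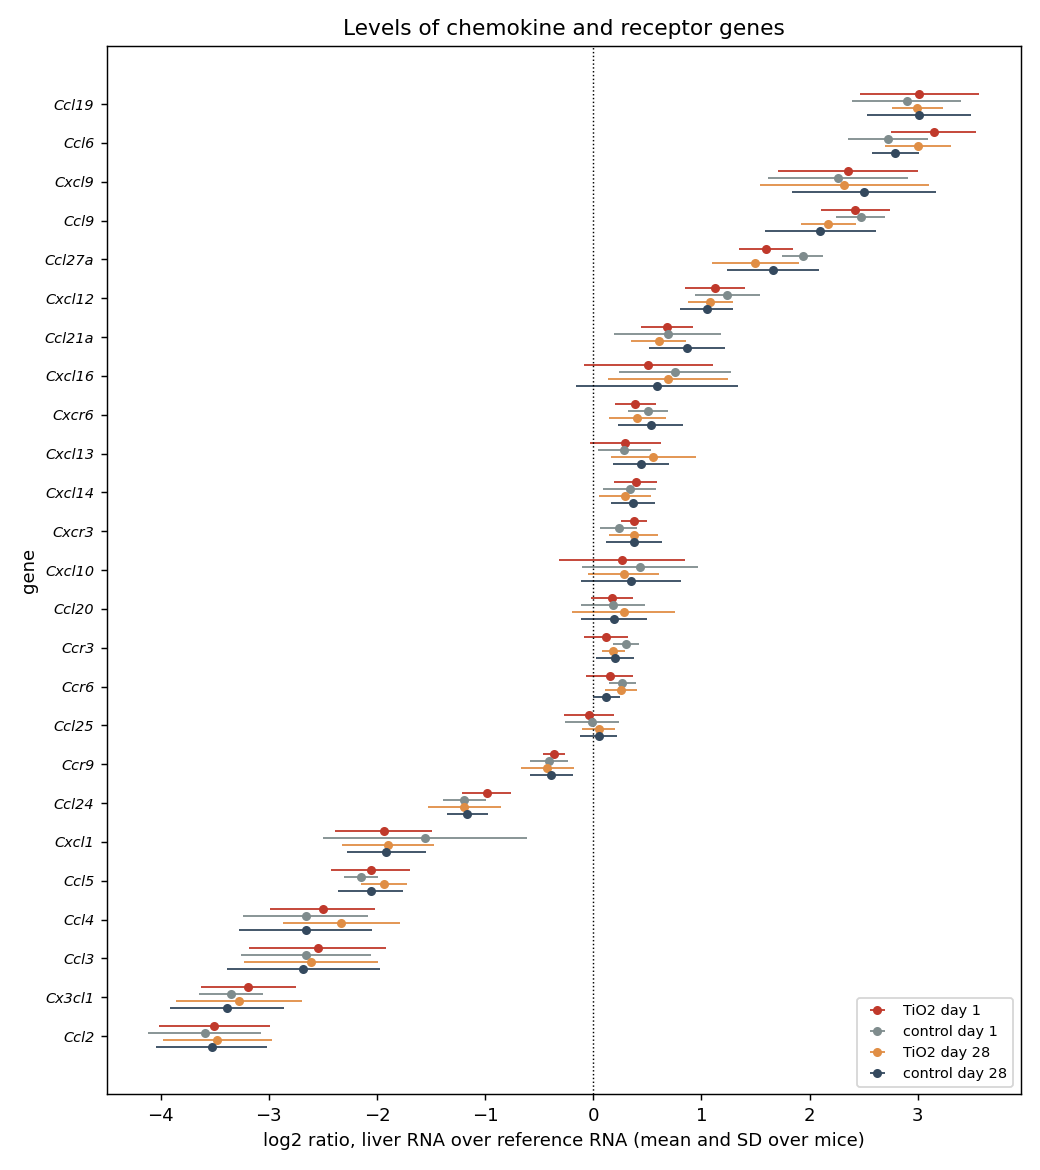
Level of 25 of the tested genes as log2 ratio of liver over reference RNA (horizontal axis), with points for the mean and bars for the SD over mice in each of the 4 groups. For each gene shown the SD bars of the TiO2 and control groups of the same day overlap, also for Ccl27a at day 1, whose mean is 1.60 with TiO2 and 1.93 in controls.

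The central question was whether TiO2 in the airways changed these transcripts in the liver. In limma 0 of the 26 genes passed an adjusted p of 0.05 at day 1 and 0 at day 28, as did 0% of the 17624 features (named genes and unnamed probes) tested with them. At an unadjusted p under 0.05 there was 1 gene at day 1, Ccl6, beside 1.72% of all features, and there were 0 genes at day 28, beside 0.942%. With scan day as a block the counts were 2 at day 1 (Ccl6 higher and Ccl27a lower in TiO2 mice), beside 4.09% of all features, and 0 at day 28, beside 3.01%, and again 0 after adjustment. The median difference over the 26 genes was -0.00 at day 1 and 0.03 at day 28, against -0.01 and 0.00 over all features. At day 1, 13 of the 26 genes had a positive difference and 13 a negative one, and at day 28 the split was 14 and 12.

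The intervals show which sizes of change these data leave room for. At day 1 the 95% interval of the difference lay within a 2-fold change in either direction for 25 of the 26 genes, the exception being Cxcl1, and at day 28 for 24, the exceptions being Ccl4 and Cxcl9. In the model with scan day as a block this held for 25 genes at day 1 and 26 at day 28. Within a 1.5-fold change lay 15 genes at day 1 and 16 at day 28, and 21 and 22 with the block. For genes near background these intervals are too narrow, because the background correction adds a constant of 50 to each signal and so compresses their ratios.

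**Figure D3:**
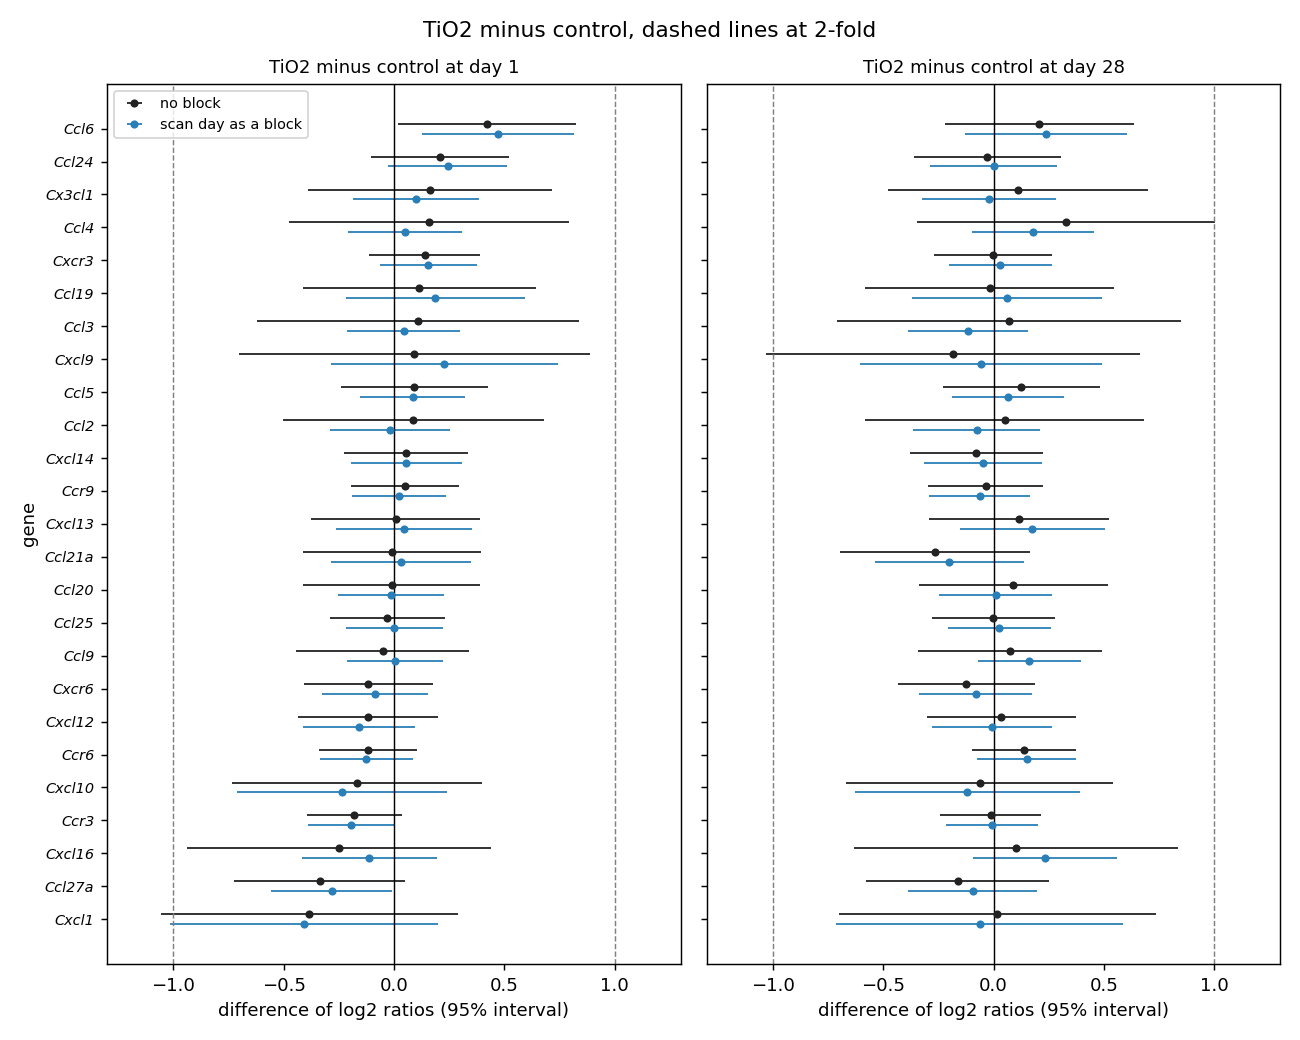
Difference between TiO2 and control mice in log2 ratio for 25 of the tested genes at day 1 (left) and day 28 (right), with 95% intervals from limma without a block (black) and with scan day as a block (blue); dashed lines mark a 2-fold change. At day 1 the interval of Ccl6 lies above 0 in both models and that of Ccl27a lies below 0 with the block, and at day 28 all intervals span 0.

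Ccl6 had the smallest unadjusted p of the 26 genes at day 1. Its level had a lowest, median and highest value of 2.67, 3.15 and 3.81 in TiO2 mice, against 2.08, 3.06, 2.81, 2.82 and 2.83 in the 5 control mice. The highest value belonged to a TiO2 mouse and the lowest to a control mouse, while the 2 groups overlapped between 2.67 and 3.06. The mean was 3.14 ± 0.39 (SD, n = 6) with TiO2 and 2.72 ± 0.37 (SD, n = 5) in controls, a difference of 0.42 ± 0.19 (SE), or 1.34-fold, with an unadjusted p of 0.040 and an adjusted p of 1.00 in limma. With scan day as a block the difference was 0.47 ± 0.17 (SE), with an unadjusted p of 0.0097 and an adjusted p of 0.988. Within scan days 1, 2 and 3 it was 0.96, -0.00 and 0.63. Without control day 1 replicate 1, the mouse at 2.08, it was 0.26.

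At day 28 Ccl6 was at 2.56, 3.09 and 3.26 (lowest, median and highest) in TiO2 mice and at 2.79, 3.06, 2.79 and 2.52 in the 4 control mice, so the groups overlapped. The difference was 0.21 ± 0.21 (SE), with an unadjusted p of 0.33, and within scan days it was -0.15, 0.34 and 0.57. It was 0.12 without control day 28 replicate 4.

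Ccl27a, a ligand known from skin, lay lower in TiO2 mice at day 1, where its level was 1.35, 1.55 and 1.99 (lowest, median and highest). The control mice had 1.95, 1.66, 2.18, 1.90 and 1.99. Of the 5 control mice 4 lay above 5 of the 6 TiO2 mice, and the groups overlapped through the remaining mice. The difference was -0.34 ± 0.19 (SE), with an unadjusted p of 0.086, and -0.28 ± 0.13 (SE) with the block, with an unadjusted p of 0.044 and an adjusted p of 0.988. It had the same sign within each scan day, at -0.55, -0.04 and -0.43. At day 28 the difference was -0.16 ± 0.20 (SE). Ccl27a has the near-identical copy Ccl27b, whose RNA this probe may also bind.

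Ccl24 and its receptor Ccr3, the pair that attracts eosinophils, were also among the 5 smallest p-values at day 1, with differences of opposite sign. Ccl24 was at -1.27, -1.05 and -0.64 (lowest, median and highest) in TiO2 mice, against -1.37, -1.04, -0.95, -1.41 and -1.19 in control mice. Its difference was 0.21 ± 0.15 (SE), with an unadjusted p of 0.18, and the values of the groups were interleaved. The other probe of Ccl24, above background on 19 arrays, gave -0.04. Ccr3 was above background on 10 of 21 arrays, 2 of 6 with TiO2 and 2 of 5 in controls at day 1. Its levels were -0.08, 0.09 and 0.42 in TiO2 mice and 0.42, 0.40, 0.13, 0.22 and 0.32 in control mice, a difference of -0.18 ± 0.10 (SE) with an unadjusted p of 0.097. The spread of Ccr3 was small, and both groups reached 0.42. The other probe of Ccr3, above background on 0 arrays, gave -0.03.

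Whether the TiO2 and control mice separated completely was counted as well. Over all arrays the TiO2 and control values of a day did not overlap for 0 of the 26 genes at day 1, beside 0.119% of all features (0.0682% higher and 0.0512% lower in TiO2 mice), and for 0 at day 28, beside 0.275% (0.12% higher and 0.155% lower). Without the 8 arrays of scan day 2, Ccl6 and Ccl24 lay higher and Ccl27a and Ccr3 lower in every TiO2 mouse than in every control mouse at day 1, 4 of 26 genes beside 4.64% of all features, with 4 TiO2 mice and 3 controls left. Over all groups the Ccr3 probe was above background on 3 arrays of scan day 1 and 0 of scan day 3. Its separation thus rests largely on values not above background. Without scan day 3 there was 1 gene without overlap at day 1, beside 1.83% of all features, and without scan day 1 there were 0, beside 1.07%. At day 28 the count was 0 without scan day 1, 2 or 3, beside 2.81, 9.26 and 2.1% of all features.

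Cxcl1, the neutrophil attractant that hepatocytes and other liver cells release in inflammation, had the largest difference of the 26 genes on the negative side at day 1 and one of the widest spreads. It was at -2.57, -1.79 and -1.41 (lowest, median and highest) in TiO2 mice. The control mice had -1.09, -0.32, -2.84, -1.93 and -1.61, and so held both the highest and the lowest value of that day. The difference was -0.38 ± 0.32 (SE), with an unadjusted p of 0.25, and it was -0.07 without control day 1 replicate 2 and -0.70 without control day 1 replicate 3. At day 28 it was 0.02 ± 0.35 (SE). Its probe was above background on 14 of 21 arrays, 4 of 6 with TiO2 and 5 of 5 in controls at day 1.

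**Figure D4:**
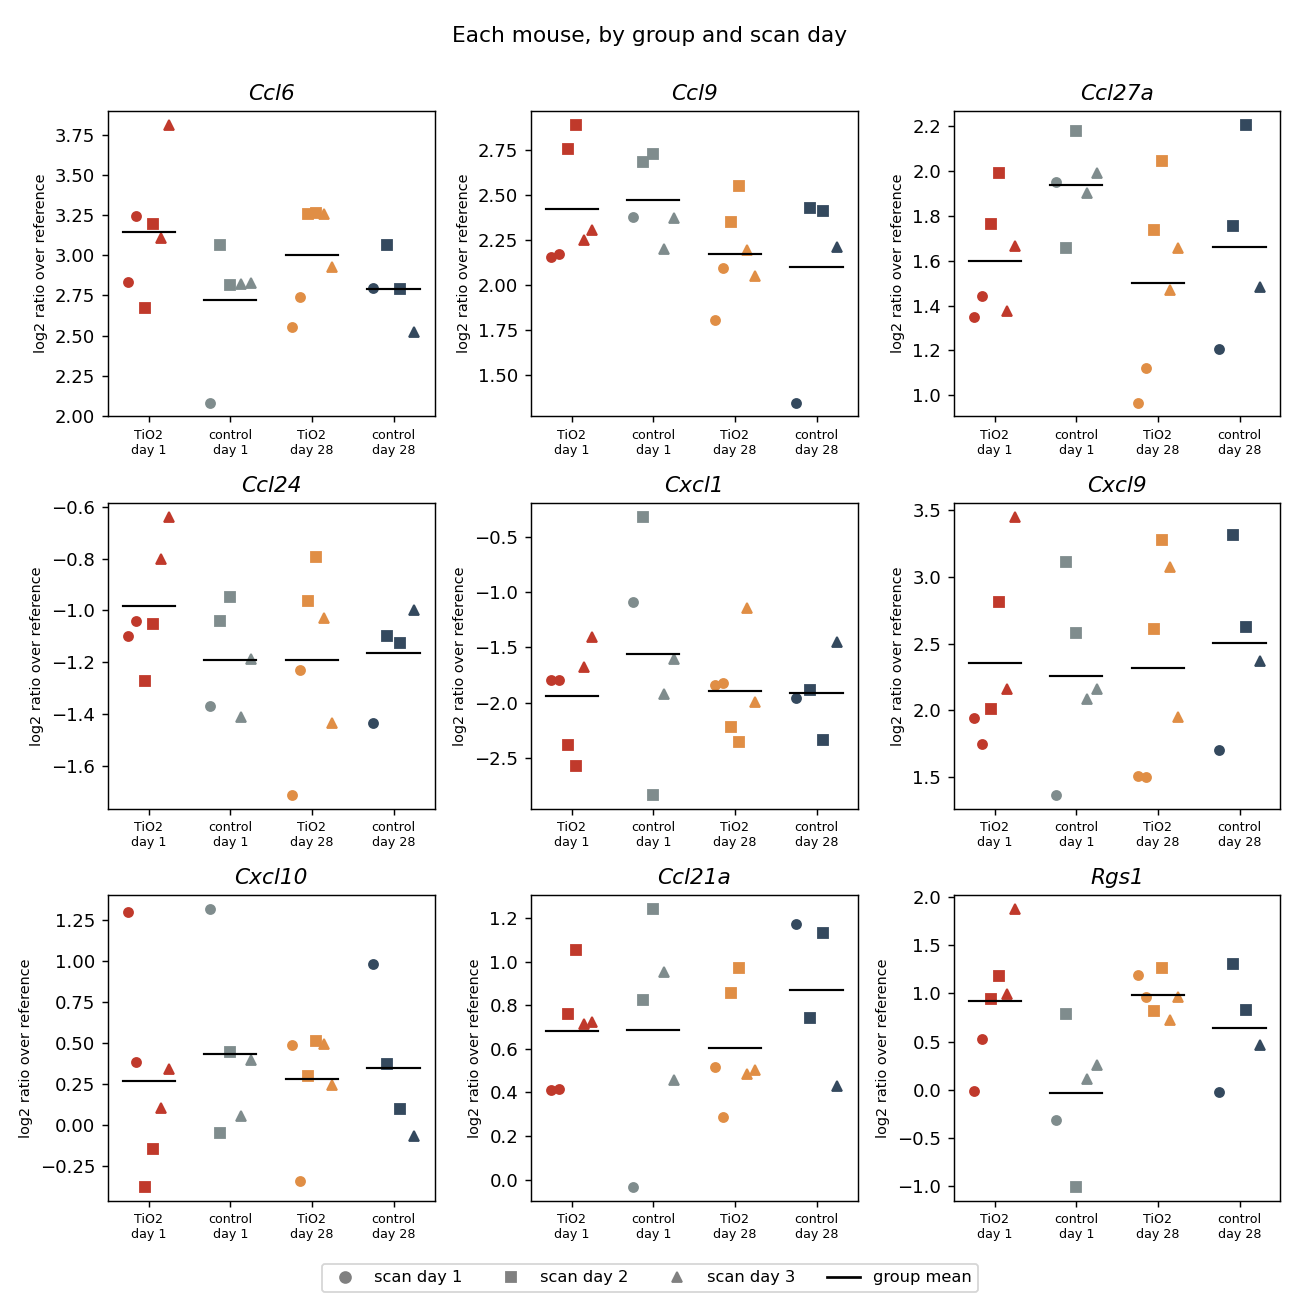
Log2 ratio of liver over reference (vertical axes, a different range in each panel) for every mouse in the 4 groups. The panels show 8 chemokine ligands and the signalling gene Rgs1. Symbols give the scan day and lines the group means. The TiO2 and control points of each day overlap in all panels; for Ccl6 at day 1 the highest point, 3.81, is a TiO2 mouse and the lowest, 2.08, a control mouse.

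Other ligands known for induction in inflamed liver showed no shift larger than the spread between mice. Ccl2 was at -4.24, -3.42 and -2.96 (lowest, median and highest) in TiO2 mice at day 1, against -2.74, -3.65, -4.15, -3.81 and -3.61 in control mice, with a difference of 0.09 ± 0.28 (SE). With scan day as a block its 95% interval was -0.29 to 0.25. Cxcl10 was at -0.38, 0.22 and 1.3 in TiO2 mice, against 1.32, -0.05, 0.45, 0.05 and 0.40 in control mice, a difference of -0.17 ± 0.27 (SE). The highest Cxcl10 values of the 2 groups, 1.3 and 1.32, came from replicate 1 of each, both of scan day 1.

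Cxcl9, the other interferon-induced ligand measured, was at 1.75, 2.08 and 3.45 (lowest, median and highest) in TiO2 mice at day 1 and at 1.36, 3.11, 2.58, 2.08 and 2.16 in control mice, a difference of 0.09 ± 0.38 (SE). At day 28 it was at 1.5, 2.28 and 3.28 in TiO2 mice and at 1.70, 3.31, 2.62 and 2.37 in control mice, a difference of -0.18 ± 0.41 (SE). Every group of Cxcl9 thus spanned more than 1.5 log2 units. Cxcl12 was steadier, with differences of -0.12 ± 0.15 (SE) at day 1 and 0.03 ± 0.16 at day 28. Its other probe, annotated to another accession, gave differences of -0.28 and 0.01. Cxcl16 had differences of -0.25 ± 0.33 (SE) at day 1 and 0.10 ± 0.35 at day 28. The other probe of Cxcl16, above background on 18 arrays, gave 0.03 and 0.25.

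At day 28 the smallest p-values belonged to Ccl21a, Ccr6, Ccl4, Ccl6 and Cxcr6, and the smallest of them was 0.21. Ccl21a, which draws T cells and dendritic cells through Ccr7, was at 0.29, 0.51 and 0.97 (lowest, median and highest) in TiO2 mice and at 1.17, 0.74, 1.13 and 0.43 in control mice. Its difference was -0.27 ± 0.21 (SE), most of it on scan day 1, where it was -0.77 against -0.02 and 0.07 on the other 2. It was -0.16 without control day 28 replicate 1, -0.18 without replicate 3 and -0.41 without replicate 4 of that group. Ccl21a has near-identical copies, so the gene behind its signal is uncertain.

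Ccl4, an attractant of macrophages and T cells, was at -3.04, -2.28 and -1.81 in TiO2 mice and at -1.94, -3.09, -3.25 and -2.36 in control mice at day 28. Its difference of 0.33 ± 0.33 (SE) was 0.18 ± 0.13 with scan day as a block, and its probe was above background on 12 of 21 arrays. Without a block it was 0.13 when control day 28 replicate 3 was left out, 0.19 without replicate 2 and 0.57 without replicate 1 of that group. Ccr6, the receptor of Ccl20, was at 0.04, 0.28 and 0.47 in TiO2 mice and at -0.02, 0.28, 0.14 and 0.08 in control mice, a difference of 0.14 ± 0.11 (SE), with detection on 13 arrays. Cxcr6, a receptor of natural killer T cells, was at 0.11, 0.42 and 0.75 in TiO2 mice and at 0.30, 0.97, 0.46 and 0.39 in control mice. Its difference was -0.12 ± 0.15 (SE), likewise with detection on 13 arrays, and it was 0.02 without control day 28 replicate 2.

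Whether the response to TiO2 differed between the days was tested as the effect at day 28 minus the effect at day 1. In limma 0 of the 26 genes passed, at an adjusted p (0% of features) or at an unadjusted p under 0.05 (beside 0.715%; with the scan day block 0, beside 2.91%). Among the smallest p-values were those of Ccr6, Ccr3, Ccl24 and Ccl21a. For Ccr6 the effect was 0.14 at day 28 and -0.12 at day 1, so that the difference of effects was 0.26 ± 0.16 (SE), with an unadjusted p of 0.115. The effects at day 28 and day 1 were -0.01 and -0.18 for Ccr3, -0.03 and 0.21 for Ccl24, and -0.27 and -0.01 for Ccl21a.

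Between control mice at day 28 and control mice at day 1, 0 of the 26 genes passed an adjusted p of 0.05 (0% of features), and 0 had an unadjusted p under 0.05, beside 2.99%. With scan day as a block 0 passed after adjustment and there was 1 gene at an unadjusted p under 0.05, beside 7.64% of all features. That gene was Ccl9, which macrophages of mice express. It was at 1.34, 2.43, 2.41 and 2.21 in the control mice of day 28 and at 2.38, 2.68, 2.73, 2.20 and 2.37 in those of day 1. The difference was -0.37 ± 0.21 (SE) without a block and -0.40 ± 0.12 with it, with an unadjusted p of 0.0022 and an adjusted p of 0.45. Without control day 28 replicate 1, the mouse at 1.34, the difference without a block was -0.12. The next smallest p-values belonged to Ccl27a, Ccr6 and Cxcl12, each with a lower mean at day 28, with differences of -0.27, -0.15 and -0.19.

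The spread between mice of the same group was larger at the median of the 26 genes than at the median of all features, which was not tested. The median SD between mice of a group was 0.33 over the 26 genes and 0.23 over all features, and 0.22 against 0.18 between mice of the same group and scan day. Cxcl1, Cxcl9 and Cxcl10 had the widest spread of the 26 within group and scan day, with SDs of 0.56, 0.47 and 0.43, larger than those of 98.8, 98 and 97.4% of all features. Ccr3 and Ccr6 had the narrowest, at 0.14 and 0.16. The spread of probes near background is compressed by the constant added to the signals, and the part of this in the order of SDs was not tested.

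For the 3 ligands with the widest spread, and for Ccl6, the RefSeq promoter sequences of build GRCm38.p6 are shown, each of 300 bases around the annotated start of transcription and most of it upstream. Capitals mark matches, on either strand, to the NF-kB consensus, the interferon-response core (GAAA, any 2 bases, GAAA), the AP-1 site TGANTCA or the TATA box TATAAA. They stand at chr5:90890995-90891294 (plus strand) for Cxcl1, chr5:92328030-92328329 (minus strand) for Cxcl9, chr5:92348840-92349139 (minus strand) for Cxcl10 and chr11:83593038-83593337 (minus strand) for Ccl6.
Cxcl1: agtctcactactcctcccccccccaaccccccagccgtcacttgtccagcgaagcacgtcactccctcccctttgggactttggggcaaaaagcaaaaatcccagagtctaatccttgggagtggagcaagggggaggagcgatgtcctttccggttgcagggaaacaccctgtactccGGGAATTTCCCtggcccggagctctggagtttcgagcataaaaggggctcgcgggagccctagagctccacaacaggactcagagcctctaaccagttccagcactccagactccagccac
Cxcl9: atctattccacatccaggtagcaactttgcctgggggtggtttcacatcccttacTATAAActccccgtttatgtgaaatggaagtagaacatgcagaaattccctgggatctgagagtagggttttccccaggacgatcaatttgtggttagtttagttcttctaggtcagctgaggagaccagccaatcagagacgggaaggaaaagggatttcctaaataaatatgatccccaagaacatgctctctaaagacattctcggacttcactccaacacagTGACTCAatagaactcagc
Cxcl10: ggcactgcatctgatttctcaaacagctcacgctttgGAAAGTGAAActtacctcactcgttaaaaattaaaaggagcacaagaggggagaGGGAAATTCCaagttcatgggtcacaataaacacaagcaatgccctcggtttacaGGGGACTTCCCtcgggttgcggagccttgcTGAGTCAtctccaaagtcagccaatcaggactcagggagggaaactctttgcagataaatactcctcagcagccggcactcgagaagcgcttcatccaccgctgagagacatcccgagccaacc
Ccl6: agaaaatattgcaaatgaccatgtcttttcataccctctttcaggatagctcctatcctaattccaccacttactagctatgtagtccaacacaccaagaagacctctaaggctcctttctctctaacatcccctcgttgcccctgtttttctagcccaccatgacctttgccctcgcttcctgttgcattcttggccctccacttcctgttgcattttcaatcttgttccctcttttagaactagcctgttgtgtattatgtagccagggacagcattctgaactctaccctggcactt
The run in capitals in Cxcl1 is a pair of overlapping NF-kB matches, and Cxcl10 holds 3 NF-kB matches, 2 of them overlapping, with 1 match each to the interferon-response core and TGANTCA. Cxcl9 holds 1 match each to TGANTCA and TATAAA, and Ccl6 none of the 4 motifs. Promoters were found for 37 of the 50 genes, 41 promoters in all. Of these 41 promoters 11 held an NF-kB match, beside 8.46% of the 32851 promoters searched. The interferon-response core was found in 3 of the 41 (3.44% of the promoters searched), TGANTCA in 7 (7.81%) and TATAAA in 10 (13.6%). Such a match describes the sequence and does not show that a factor binds there.

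Much of the variation in the levels of these genes went with scan day rather than with treatment or time. The shares are given for the tested genes only, and whether they differ from those of other features was not tested. Scan day accounted for 89.6% of the variance of Ccl3, given the groups, and for 81.8% for Ccl2, 80.4% for Ccl4, 80.2% for Cxcl16 and 74.8% for Cx3cl1. The mean level of Ccl3 was -2.25 on scan day 1, -3.31 on scan day 2 and -2.14 on scan day 3. Cxcl16 lay the other way, at -0.11, 1.09 and 0.74. The Ccl3 probe was above background in liver on 8 arrays of scan day 2 and on 0 of scan days 1 and 3. Its levels on scan days 1 and 3 therefore rest on the background correction. The Cxcl16 probe was above background on 1 array of scan day 1 and the Ccl4 probe on 1 array of scan day 3. The least share went to Ccr6 at 12.5% and Cxcl1 at 17.7%. Given scan day, the 4 groups accounted for 28.8% of the variance of Ccl6, 24.2% for Ccl9 and 20.5% for Ccr3, and for less in each of the other 23 genes.

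**Figure D5:**
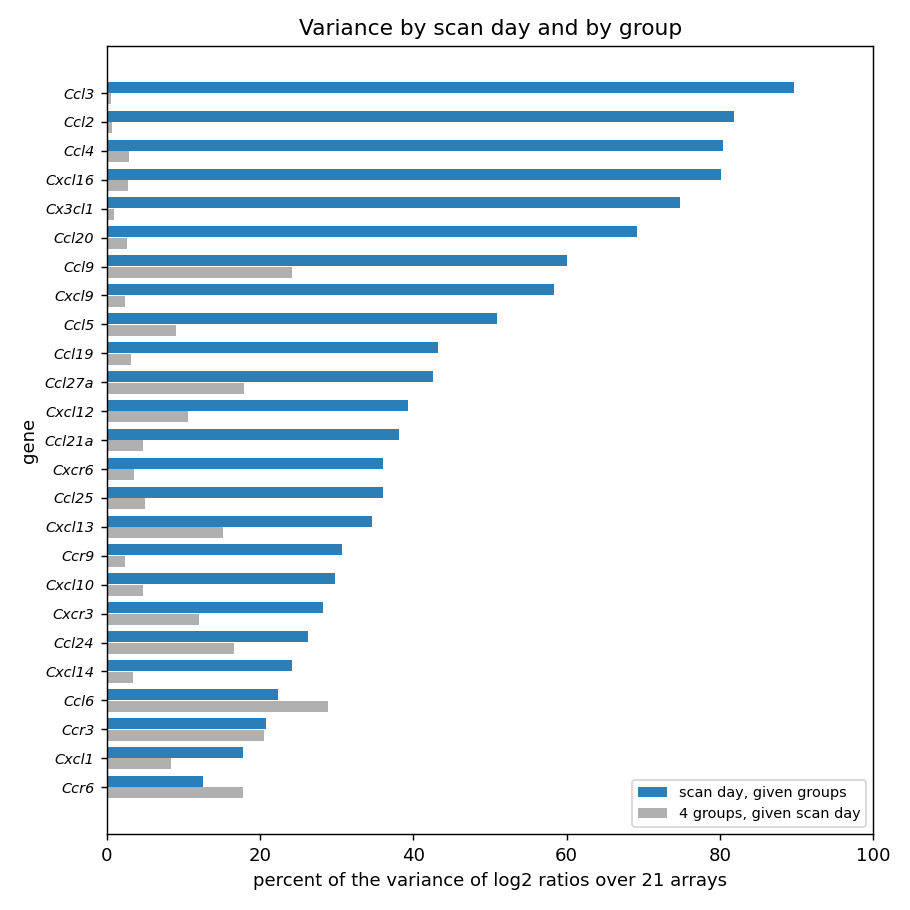
Percent of the variance of the log2 ratio of 25 tested genes over 21 arrays that went with scan day, given the groups (blue), and with the 4 groups, given scan day (grey). Scan day has the longer bar for all genes shown except Ccl6 and Ccr6, and reaches 89.6% for Ccl3, which was above background on scan day 2 only.

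Position in the genome was a feature the choice of genes did not use. In the order of protein-coding genes of GRCm38.p6, other genes left aside, 27 of the 50 genes lay directly next to another of them, in 19 neighbouring pairs. Ccl9, Ccl6, Ccl3 and Ccl4 stand in a row, and their differences at day 1 were -0.05, 0.42, 0.11 and 0.16. Neighbours Cxcl15, Cxcl1 and Cxcl2 were detected on 2, 14 and 2 arrays.

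Transcripts of the chemokine pathway outside the symbol rule were taken from a list of 43 genes for further ligands, atypical receptors, G proteins, arrestins, kinases and regulators, of which 41 were on the array and 34 were tested. After adjustment 0 passed at either day. At an unadjusted p under 0.05, 2 lay higher and 0 lower in TiO2 mice at day 1, with or without the scan day block, beside 4.09 and 1.72% of all features. At day 28 the count was 2 with the block and 0 without it, beside 3.01 and 0.942%. The median difference of the 34 was -0.00 at day 1 and 0.05 at day 28.

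The genes behind these counts were named after their values had been seen. Rgs1, which shortens signalling of chemokine receptors by speeding the shut-off of their G proteins, was at -0.02, 0.52, 0.94, 1.18, 0.99 and 1.87 in the 6 TiO2 mice at day 1 and at -0.31, 0.79, -1.0, 0.11 and 0.26 in control mice. Of the 6 TiO2 mice 4 lay above every control mouse. The Rgs1 probe was above background on 18 arrays. Among the exceptions were control day 1 replicates 1 and 3, at -0.31 and -1.0, whose levels therefore rest on the background correction. The difference was 0.95 ± 0.30 (SE), with an unadjusted p of 0.0048 and an adjusted p of 1.00, and 1.01 ± 0.27 with scan day as a block, with an unadjusted p of 0.0011 and an adjusted p of 0.988. It had the same sign within scan days 1, 2 and 3, at 0.57, 1.17 and 1.25. At day 28 the difference of Rgs1 was 0.34 ± 0.32 (SE). The control mice had a mean of -0.03 at day 1 and 0.64 at day 28.

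Ext1, an enzyme of heparan sulfate synthesis (heparan sulfate binds chemokines at cell surfaces), had a mean of -0.27 ± 0.22 (SD, n = 6) in TiO2 mice and -0.60 ± 0.31 (SD, n = 5) in control mice at day 1. The difference was 0.33 ± 0.14 (SE), with an unadjusted p of 0.024, and 0.19 without control day 1 replicate 1. With the block at day 28 Pf4, the platelet chemokine Cxcl4, lay lower in TiO2 mice at -0.82 ± 0.31 (SE) and Ppbp, another platelet chemokine, higher at 0.25 ± 0.11, with unadjusted p-values of 0.015 and 0.028. Control day 28 replicate 1 stood at -0.10 for Pf4, and the other 3 control mice between -3.82 and -3.34. The Pf4 probe was above background on 20 arrays, and the exception was the array of control day 28 replicate 1. Without that mouse, and without a block, the difference of Pf4 was 0.21. The Ppbp probe was above background on 8 arrays, all of scan day 2. Without a block its difference was 0.19, and 0.08 without control day 28 replicate 1 or 0.12 without control day 28 replicate 4.

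Markers of leukocytes were counted from fixed lists, since a shift of cells would move the genes they express. At day 1 no marker of Kupffer cells (7 tested), monocytes (3), neutrophils (4), T cells (5), B cells (4), natural killer cells (3) or dendritic cells (3) had an unadjusted p under 0.05, with or without the scan day block. Over all features the share was 4.09% with the block and 1.72% without it. At day 28 there were 0 without the block and 1 with it, beside 0.942 and 3.01% of all features. The 1 marker was the Kupffer cell gene Vsig4, at 0.47 ± 0.22 (SE) with an unadjusted p of 0.043 and an adjusted p of 1.00. For Kupffer cells 6 of 7 differences were positive at day 1, with a median of 0.10, and the mean level of the list ranged from 2.59 to 3.98 in TiO2 mice and from 2.73 to 3.17 in control mice. At day 28, 7 of 7 were positive without the block and 6 with it, both with a median of 0.12, and the mean level ranged from 2.55 to 3.55 in TiO2 mice and from 2.79 to 3.25 in control mice. For neutrophils at day 1 the mean level of the tested markers ranged from 0.50 to 1.36 in TiO2 mice and from 0.54 to 0.94 in control mice. Of the 4 tested neutrophil markers 2 had a positive difference at day 1, and the median was 0.04. S100a9, of neutrophils and monocytes, had a difference of 0.47, with an unadjusted p of 0.24. The differences were 0.17 for S100a8, -0.09 for Mpo and -0.17 for Csf3r, while Elane, Ngp and Camp were above background on 0 arrays. The part of these cells in the values of Ccl6 and Rgs1 was not tested.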

How the data were processed

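Liver RNA of 21 mice was measured on arrays with 2 colours. Per the file headers, the deposited spot values are intensity, not normalized: median pixel brightness per channel for each spot and its surround. LogRatio, per the file headers, is log10 of red over green once the scanner software had corrected background and dyes. A further table deposited by the authors gives log2 values without stating scale, centring or direction. Its columns correlated at 0.9957 to 0.9971 with liver over reference ratios of the same arrays, and their medians ran from -0.058 to -0.011, so scale and direction were taken from this match. The headers name Feature Extraction 10.7.3.1, whereas the submitters' processing notes name 9.5.3.1.

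Background was corrected in limma 3.58.1 (R 4.3.3) by normexp with an offset of 50 on median signals, the mean signal of the plan not being among the columns, followed by loess within arrays. Deviant spots by the scanner software's own marks (72 to 324 on an array) took their array's median background for normexp and were then left out. Symbols came from each probe's accession through the RefSeq gene table of GRCm38.p6, with 1 symbol for 23374 probes and none for 17800. A gene's brightest probe stood for it. Probes below background on over 50% of the arrays of every group were not tested, which left 17624 features, 11239 of them named genes. One model of the 4 group means was fitted over all arrays, with Benjamini-Hochberg adjustment over all features, after a check on simulated data. Scan day and slide were taken from the headers. The number of arrays limits the precision.

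The members and lists were chosen with earlier results of these data known. Values are given for the 5 members with the smallest unadjusted p in each of the 4 comparisons (1 gene is counted in the totals but not reported here) and for ligands and receptors with a textbook role in liver. The alternatives were other background corrections, the LogRatio column, the deposited table, scaling between arrays, scan day or slide as a block, other filters, all probes of a gene, array weights, a fit of the compared groups alone, and leaving out scan days or single arrays.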

Additional observations from a re-analysis of the deposited data

Results flagged for a closer look

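In 6 of 76 groups examined (19 genes in 4 groups each), 1 mouse lay far from all others of its group by Dixon's criterion, which chance meets in about 1 group in 20 where a group is 1 population. These groups each hold 3 scan days, and the same arrays recur from gene to gene. Most of the genes were also picked by their p-values in these data. For these reasons that rate may not apply here. Control day 1 replicate 1, an array of scan day 1, accounted for 4 of the 6. It stood at 2.08 for Ccl6 (nearest other control mouse 2.81), at -0.155 for Cxcl16 (nearest 0.87; the mean of all arrays of scan day 1 was -0.11), at -1.15 for Ext1 (nearest -0.55) and at -2.03 for Pf4 (nearest -3.22). It was the only control array of day 1 scanned on that day. Control day 28 replicate 1, the only control array of its day scanned on scan day 1, stood at -0.0984 for Pf4, with the nearest other mouse at -3.34. The Pf4 probe was not above background on that array, which had the most marked spots, 324. TiO2 day 28 replicate 2 stood at -0.342 for Cxcl10 (nearest 0.24). What set these mice apart was not tested.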

How the results depend on the processing

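No paired analysis was possible because the replicate numbers only reflect deposition order and pair no mice. Under the 16 alternatives (15 for the difference between the days, where a fit of the compared groups alone was not run) and with each of the 21 arrays left out in turn, 0 of the tested genes were called in any of the 4 comparisons. The lowest adjusted p was 0.923 at day 1 (slide as a random block) and 0.45 between the control groups (scan day as a block). At an unadjusted p under 0.05 the count at day 1 ranged from 0 to 4 genes, reaching 4 with slide as a random block (beside 5.26% of all features) and without scan day 2 (beside 3.31%). It ranged from 0 to 1 at day 28, with 1 by LogRatio (beside 1.71%), and from 0 to 3 between the control groups, with 3 under slide as a random block (beside 6.72%). For the difference between the days it was 0 throughout, beside 0.471 to 2.91% of features. The count without overlap at day 1 was 4 without scan day 2 (beside 4.64% of features) and 1 without scan day 3 (beside 1.83%). Of 22 differences of named genes, 4 changed sign in 1 alternative each, none of them past the threshold: Ccl6 at day 28 (-0.0453 with normexp on all spots), Ccl24 (0.0443 without scan day 3) in the difference between the days, and at day 28 Cxcr6 (-0.199 to 0.0248 over the arrays left out) and Pf4 (-1.03 to 0.214). The cause was not tested. Ccl6 at day 1 ranged from 0.15 (LogRatio of the scanner software) to 0.67 (without scan day 2). Depth on these arrays is signal over background, which limits the 13 tested genes not detected on every array.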
